A study of Mus musculus with 2 samples.

Results

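The genes described here are 9 apolipoproteins, *Apoe*, *Apoc1*, *Apoc2*, *Apoc3*, *Apoa1*, *Apoa2*, *Apoa4*, *Apob* and *Apod*, taken by symbol from an expression table of 18159 mouse genes. All 9 were listed, and all were above 0 in both libraries. The table holds FPKM (fragments counted per length of transcript and per depth of library) from mRNA-seq of the tunica muscularis of the jejunum, the muscle layers around the middle small intestine, which had been peeled off the mucosa in mice aged 15 days. *Dnmt1*-WT mice carry *smMHC* Cre-eGFP, a transgene that makes Cre recombinase and a green fluorescent protein under the *Myh11* promoter and is therefore active in smooth muscle cells. *Dnmt1*-KO mice carry the same transgene together with floxed *Dnmt1* alleles, so that the gene for the maintenance DNA methyltransferase is deleted where *Myh11* is expressed, while other cells of the wall are not targeted. Both are on a C57BL/6 background, and the strain label of both samples gives the transgene as Tg(Myh11-cre,-EGFP)2Mik and the targeted alleles as Dnmt1lox/lox. The free-text description of both samples names the knockout genotype, and the genotype label and the title were used to tell them apart. The methods give 2 male and 2 female mice per genotype, and there was 1 library for each, with no statement on pooling. No difference below could therefore be set against a spread between replicates, no test was made, and genotype cannot be told apart from any other difference between the 2 libraries. The table gives FPKM without the reads per gene behind them, and no counting error was computed. The targeted gene, *Dnmt1*, was read at 11.58 FPKM in *Dnmt1*-WT and 7.58 FPKM in *Dnmt1*-KO, a ratio of 0.655. Where a pair of values is given without names, that of *Dnmt1*-WT comes first, and every ratio is that of *Dnmt1*-KO over *Dnmt1*-WT.

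Apolipoproteins are the protein part of lipoprotein particles, which carry cholesterol and triglycerides through lymph and blood. ApoB forms the scaffold of chylomicrons, which enterocytes assemble from dietary fat, and of very low density lipoproteins from the liver. ApoA1 is the main protein of high density lipoprotein, apoA2 its second, and apoA4 is secreted by enterocytes with chylomicrons. The small C apolipoproteins exchange between particles, where apoC2 activates lipoprotein lipase and apoC1 and apoC3 restrain lipolysis and uptake. ApoE is the ligand through which receptors take up remnant particles, and it is also made by macrophages, glia and other cells outside the liver. ApoD belongs to another protein family, the lipocalins, and binds small hydrophobic molecules.

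All 9 apolipoproteins were higher in *Dnmt1*-KO, whereas 50.3% of the 16102 genes above 0 in both libraries had a ratio above 1. The ratio was 2 or more for 7 of the 9, against 11.8% of all genes, and 0.5 or less for 0 of the 9, against 4.98% of all genes. At a ratio of 1.5 or more stood 8 of the 9, against 19.7% of all genes. The median log2 ratio of the 9 was 1.12, and that of all genes was 0.01. Their summed expression was 999.65 FPKM in *Dnmt1*-WT and 2203.37 FPKM in *Dnmt1*-KO, which is 0.233% and 0.478% of all FPKM listed and a ratio of 2.20. Among the 7 genes, 4 had ratios between 2.07 and 2.30, close to the limit of 2. Centring the ratios on transcript GC content left 3 of the 9 at 2 or more, centring on transcript length left 4, and scaling each library to its FPKM sum left 5. The share of all genes at 2 or more was not recomputed under these settings.

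**Figure D1:**
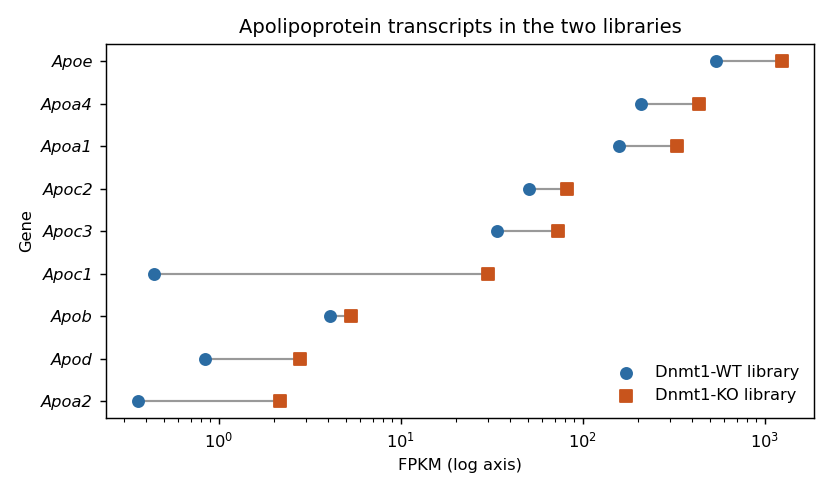
FPKM of the 9 apolipoproteins on a log axis, with a circle for the *Dnmt1*-WT library and a square for the *Dnmt1*-KO library (1 library each). Every square lies to the right of its circle, and the widest gap is that of *Apoc1*, from 0.44 to 30.09 FPKM.

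On the FPKM scale, which is per transcript length, levels of the 9 genes extended from 0.36 to 542.76 in *Dnmt1*-WT and from 2.18 to 1247.11 in *Dnmt1*-KO. *Apoe* was the most abundant in both libraries, followed by *Apoa4*, *Apoa1*, *Apoc2* and *Apoc3*, in the same order in each library. These 5 genes were at 30 FPKM or more in both libraries. At this level, a limit chosen after seeing the data, 2.7% of the 2145 genes at 30 FPKM or more in both libraries had a ratio of 2 or more, and so did 4 of these 5 apolipoproteins. With centring on transcript GC content all 5 were below 2, and with centring on transcript length *Apoa4*, at 2.05, was the only one of the 5 above it. The share of 2.7% was not recomputed with either centring. *Apob* lay in the middle of the expressed genes, and *Apoa2*, *Apod* and *Apoc1* were under 1 FPKM in *Dnmt1*-WT.

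**Figure D2:**
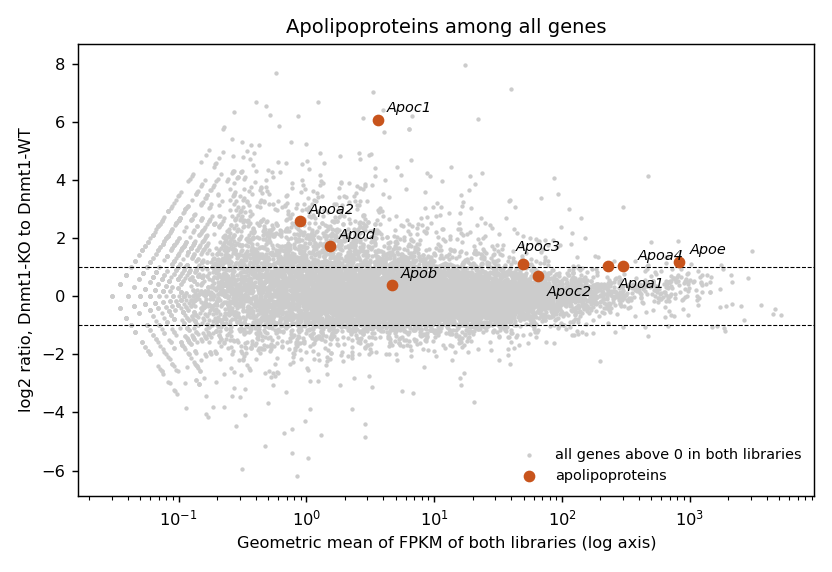
The log2 ratio of *Dnmt1*-KO to *Dnmt1*-WT against the geometric mean of FPKM (log axis) for the 16102 genes above 0 in both libraries, with the 9 apolipoproteins in colour and dashed lines at a 2-fold difference. The spread of all genes narrows toward high expression, where *Apoe*, *Apoa4*, *Apoa1* and *Apoc3* lie just above the upper line.

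*Apoe*, the receptor ligand, was listed at 542.76 FPKM in *Dnmt1*-WT and 1247.11 FPKM in *Dnmt1*-KO. Its ratio was 2.30, and its place among all genes ordered by FPKM went from 115 to 38. The difference of 704.35 FPKM was larger than the summed difference of the other 8 apolipoproteins, whose total was 456.89 FPKM in *Dnmt1*-WT and 956.26 FPKM in *Dnmt1*-KO. A higher ratio was found for 1510 genes, or 9.38% of those compared. The genes nearest to *Apoe* in the levels of both libraries were *Crip1* (610.69 and 1177.52 FPKM), *Lgals1* (527.6 and 1013.69 FPKM) and *Tmsb10* (625.07 and 1032.41 FPKM), at distances of 0.19, 0.30 and 0.34 on the log2 scale of FPKM + 0.1, over 2 libraries. Because the study concerns CpG methylation, the promoter of *Apoe* is shown with its CpG dinucleotides in capitals. It consists of the 250 bases before the transcription start on the minus strand, chr7:19699189-19699438 of GRCm38.p6, for one of the 3 starts that RefSeq gives.
*Apoe*: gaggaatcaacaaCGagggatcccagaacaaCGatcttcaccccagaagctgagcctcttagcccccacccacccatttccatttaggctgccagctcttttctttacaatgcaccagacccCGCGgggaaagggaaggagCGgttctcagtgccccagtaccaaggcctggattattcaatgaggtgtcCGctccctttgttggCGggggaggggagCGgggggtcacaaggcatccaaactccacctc
This window holds 8 CpG, and 43.0% of the 32851 RefSeq promoter windows of this length hold as many or more. The median window holds 6. Methylation was not analysed here.

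The 3 C apolipoproteins behaved differently from one another. *Apoc1* showed the largest ratio of the 9 genes, with 0.44 FPKM in *Dnmt1*-WT and 30.09 FPKM in *Dnmt1*-KO. The ratio of 68.4 was exceeded by 14 of the 16102 genes. Since its level in *Dnmt1*-WT is near the lower end of the table, the size of this ratio depends on the pseudocount, and it was 21.6 when 1 was added to each FPKM. *Apoc1* was the only one of the 9 among the study's qPCR targets, and the primers are given here because they fix which part of the gene was amplified.
Forward primer: tcctgattgtggtcgtagcc
Reverse primer: ctccaatgttccggacaaatcc
Both are written 5′ to 3′. On GRCm38 the forward primer lies at chr7:19692424-19692443 and the reverse primer at chr7:19691989-19692010. In 2 of the 4 GENCODE transcripts of *Apoc1* both match without a mismatch, in neighbouring exons, and enclose 80 bases of transcript.

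*Apoc2*, the activator of lipoprotein lipase, was listed at 50.78 FPKM in *Dnmt1*-WT and 81.81 FPKM in *Dnmt1*-KO. Its ratio of 1.61 was below 2 and was exceeded by 17.1% of genes. *Apoc3*, an inhibitor of the same lipase, was listed at 33.7 and 73 FPKM, a ratio of 2.17. The order of both genes was thus the same in the libraries, and the distance between them was smaller in *Dnmt1*-KO. *Apoc3* was found as 2 transcript variants in *Dnmt1*-WT and as 3 in *Dnmt1*-KO. The 250 bases before the start of *Apoc2*, on the minus strand at chr7:19677942-19678191, are shown in the same way as those of *Apoe*, which lies in the same cluster and had a larger ratio.
*Apoc2*: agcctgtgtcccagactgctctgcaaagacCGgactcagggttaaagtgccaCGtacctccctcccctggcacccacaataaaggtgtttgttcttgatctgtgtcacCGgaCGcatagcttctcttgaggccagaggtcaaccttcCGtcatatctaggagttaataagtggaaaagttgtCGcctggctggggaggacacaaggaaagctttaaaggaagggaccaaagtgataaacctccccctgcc
The window holds 6 CpG, as many as the median window. The letters AGGTCA, a core element bound by nuclear receptors, occur in it on either strand, as they do in 14.02% of all windows.

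*Apoa1* and *Apoa4* had nearly equal ratios. *Apoa1* was listed at 158.32 FPKM in *Dnmt1*-WT and 327.3 FPKM in *Dnmt1*-KO, a ratio of 2.07. For *Apoa4* the values were 208.37 and 433.8 FPKM and the ratio 2.08. Both genes lie within 13 kb of each other on chromosome 9, on either side of *Apoc3*, and the 3 genes kept their proportions. Per FPKM of *Apoa1* there were 1.32 FPKM of *Apoa4* in *Dnmt1*-WT and 1.33 in *Dnmt1*-KO. For *Apoc3* the same quantity was 0.213 and 0.223. Summed over the 3 genes, expression was 400.39 FPKM and 834.1 FPKM, a ratio of 2.08. Nearest in level to *Apoa1* were *Rps27l* (151.69 and 320.18 FPKM), *Dbi* (172.39 and 331.07 FPKM) and *S100a10* (165.48 and 387.45 FPKM), and nearest to *Apoa4* were *Col6a2* (236.48 and 399.93 FPKM), *Gal* (220.55 and 352.41 FPKM) and *Myeov2* (238.63 and 350.11 FPKM). GENCODE places an antisense gene, *Gm10680*, and a second model, *Gm47528*, across *Apoa4*, and without a stated use of strand their reads cannot be told apart from those of *Apoa4*.

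The promoter of *Apoa1* is shown for this group of 3 genes with near-equal ratios. RefSeq starts *Apoa1* 50 bases after GENCODE does, and only the 200 bases before both starts are printed, on the plus strand at chr9:46228380-46228579.
*Apoa1*: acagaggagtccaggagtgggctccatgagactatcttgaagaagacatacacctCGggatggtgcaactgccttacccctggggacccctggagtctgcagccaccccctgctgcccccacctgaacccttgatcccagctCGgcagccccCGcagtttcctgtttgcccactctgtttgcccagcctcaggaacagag
The full RefSeq window of 250 bases holds 4 CpG, 3 of them in the part printed, and 62.2% of windows hold as many or more. The window of *Apoa4* holds 1 CpG. Of the 7 apolipoproteins with a RefSeq window, *Apob* had 7 CpG and *Apod* 4. The letters TATAAA were found on either strand in the windows of *Apoa2* and *Apob* and in 12.4% of all windows. The GC box GGGCGG was found in none of the 7 and in 32.7% of all windows. *Apoc1* and *Apoc3* are the 2 members for which no window was read.

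*Apoa2* was listed at 0.36 FPKM in *Dnmt1*-WT and 2.18 FPKM in *Dnmt1*-KO. Its ratio of 6.06 was the second of the 9 genes, and it was 2.34 with a pseudocount of 1. In proportion to *Apoa1*, the other protein of high density lipoprotein, *Apoa2* was at 0.227% in *Dnmt1*-WT and 0.666% in *Dnmt1*-KO. Its promoter is shown as an example with few CpG, as the 250 bases before one of the 2 starts that RefSeq gives, on the plus strand at chr1:171224804-171225053.
*Apoa2*: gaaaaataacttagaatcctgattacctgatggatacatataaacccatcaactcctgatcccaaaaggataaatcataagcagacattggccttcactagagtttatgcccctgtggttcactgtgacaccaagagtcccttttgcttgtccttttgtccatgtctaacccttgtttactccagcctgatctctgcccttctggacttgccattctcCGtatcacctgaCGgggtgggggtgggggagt
This window holds 2 CpG, and 81.2% of windows hold as many or more.

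*Apob*, the scaffold of chylomicrons, was listed at 4.08 and 5.3 FPKM, a ratio of 1.30 that was exceeded by 27.1% of genes. This was the lowest ratio of the 9 as listed, while with centring on transcript GC content or length that of *Apoc2* was lower. Its GENCODE transcripts reach 13934 bases, against at most 2074 bases for the other 8. *Apod*, the lipocalin, was listed at 0.84 and 2.78 FPKM, a ratio of 3.31. It was found as 1 transcript variant in *Dnmt1*-WT and as 2 in *Dnmt1*-KO. With a pseudocount of 1 its ratio was 2.05.

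**Figure D3:**
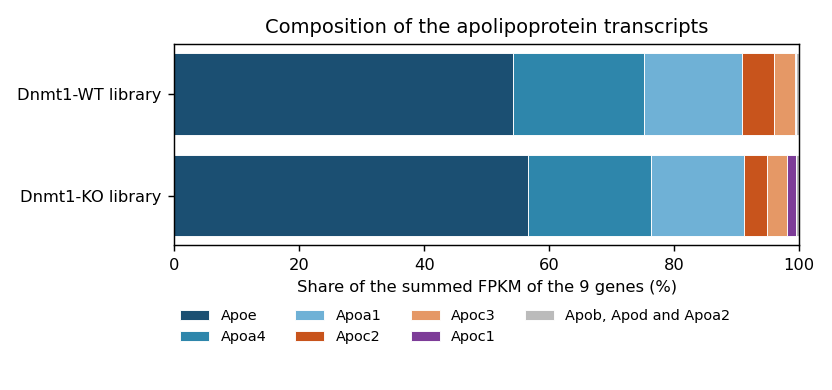
Share of each gene in the summed FPKM of the 9 apolipoproteins, in percent, for the *Dnmt1*-WT and the *Dnmt1*-KO library. *Apoe* takes 54.3% and 56.6%, *Apoa4* 20.8% and 19.7%, and *Apoa1* 15.8% and 14.9%, while *Apoc1* goes from 0.0440% to 1.37%.

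The composition of the apolipoprotein transcripts was similar in the libraries. *Apoe*, *Apoa4* and *Apoa1* together made up most of the sum in each, and the share of *Apoe* was 54.3% in *Dnmt1*-WT and 56.6% in *Dnmt1*-KO. The share of *Apoc2* was 5.08% and 3.71%, and that of *Apoc3* 3.37% and 3.31%. The main departure was *Apoc1*, whose level in proportion to *Apoc2* was 0.866% in *Dnmt1*-WT and 36.8% in *Dnmt1*-KO.

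Apart from *Apoa2*, *Apob* and *Apod*, the genes lie in 2 clusters, and the genes around them were compared to see how far the higher values extended. *Apoe* (chr7:19696109-19699188), *Apoc1* (chr7:19689481-19692660) and *Apoc2* (chr7:19671579-19677941) follow each other on the minus strand, with *Apoc4* between *Apoc1* and *Apoc2*. *Apoc4*, a small apolipoprotein made chiefly by the liver, was listed at 0.28 FPKM in *Dnmt1*-WT and 6.77 FPKM in *Dnmt1*-KO, a ratio of 24.2. *Apoc1* and *Apoc4*, both near 0 in *Dnmt1*-WT, are thus flanked by *Apoe* and *Apoc2*, which were abundant in both. GENCODE has a protein-coding gene, *Gm44805*, on the same strand, whose span covers nearly all of *Apoc4* and of *Apoc2*. Reads of *Gm44805*, *Apoc4* and *Apoc2* could therefore have been assigned to one another. There were 7 other listed genes with a start within 100 kb of the 3 members. Of these, 1 had a ratio of 2 or more, against 11.8% of all genes. This was *Pvrl2*, the cell adhesion gene now called *Nectin2*, with 11.22 and 26.87 FPKM. The closest on the other side of *Apoe*, *Tomm40*, which encodes a pore of the mitochondrial outer membrane, was listed at 19.62 and 25.77 FPKM, a ratio of 1.31. The median ratio of the 7 genes was 1.31.

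**Figure D4:**
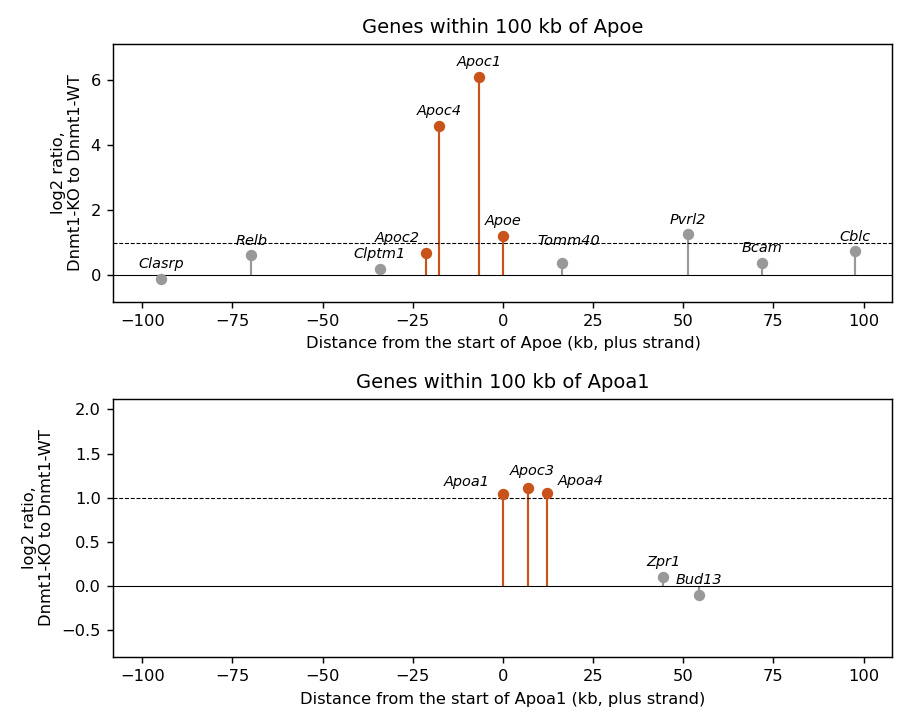
The log2 ratio of *Dnmt1*-KO to *Dnmt1*-WT of genes above 0 in both libraries, by the distance of their start from that of *Apoe* (top) or *Apoa1* (bottom) in kb, with apolipoproteins in colour and a dashed line at 2-fold. *Apoc1* and *Apoc4* stand far above their neighbours, and *Apoa1*, *Apoc3* and *Apoa4* share one height above *Zpr1* and *Bud13*.

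In the second cluster, *Apoa1* (chr9:46228580-46230466) and *Apoa4* (chr9:46240696-46243459) lie on the plus strand and *Apoc3* (chr9:46232933-46235636) on the minus strand. The other genes listed within 100 kb and above 0 were *Zpr1*, with 5.85 FPKM in *Dnmt1*-WT and 6.3 FPKM in *Dnmt1*-KO, and *Bud13*, with 6.14 and 5.73 FPKM. Their ratios of 1.08 and 0.933 were far from those of the 3 apolipoproteins. Around *Apoa2* (chr1:171225054-171226379), 12 genes were listed, and 4 of them had ratios of 2 or more, against 11.8% of all genes. Among these, *Fcer1g*, the immune receptor adaptor that starts 9311 bases from *Apoa2*, was listed at 11.52 and 63.86 FPKM, a ratio of 5.54. *Adamts4*, a matrix protease, had a ratio of 7.53 with 0.38 and 2.86 FPKM, while *Tomm40l*, the gene nearest to *Apoa2*, was at 13.06 and 9.91 FPKM. *Apob* lies at chr12:7977648-8016835, with 0 listed genes within 100 kb. *Apod* lies at chr16:31296192-31314808, and its single listed neighbour, *Ppp1r2*, was at 37.56 and 25.66 FPKM, a ratio of 0.683.

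Further apolipoproteins and genes of lipoprotein handling were grouped by role. The list of other apolipoproteins had 23 symbols, of which 22 were matched and 16 were above 0 in both libraries. Ratios of 2 or more were found for 9 of the 16 and a ratio of 0.5 or less for 1, against the 11.8% and 4.98% of all genes given above. Of the 9, all but *Apol9a* and *Apol9b* were under 1 FPKM in *Dnmt1*-WT, and at low levels the ratios of all genes spread more widely. *Clu*, which encodes apolipoprotein J, was the most abundant, with 44.14 FPKM in *Dnmt1*-WT and 82.04 FPKM in *Dnmt1*-KO, a ratio of 1.86. *Apoo* and *Apool*, which encode proteins of the mitochondrial inner membrane, had ratios of 0.901 and 0.837. *Apold1*, an endothelial gene, was at 0.97 and 3.2 FPKM. The L apolipoproteins were low, with *Apol6* at 0.35 and 4.15 FPKM, *Apol9a* at 1.86 and 4.47 FPKM, *Apol9b* at 1.15 and 3.87 FPKM, *Apol10b* at 1.66 and 3.14 FPKM, *Apol7d* at 0.81 and 1.52 FPKM and *Apol7a* at 1.69 and 1.51 FPKM. Several of them are close copies of one another, so their reads may have been divided between them.

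Genes for the assembly of apoB particles and the editing of *Apob* mRNA formed a further list. All 14 had ratios above 1, against 50.3% of all genes, and 7 had ratios of 2 or more, against 11.8%, with a median of 2.06. *Mttp*, the microsomal transfer protein that loads lipid onto apoB, was listed at 6.22 FPKM in *Dnmt1*-WT and 18.89 FPKM in *Dnmt1*-KO, a ratio of 3.04. *Mogat2*, *Dgat1* and *Dgat2*, which build triglycerides, had ratios of 3.89, 2.23 and 2.14. *Cideb* and *Tm6sf2*, which act in the lipidation of particles, had ratios of 2.82 and 2.43, and *Soat2*, which esterifies cholesterol, 2.16. *Apobec1*, the enzyme that edits *Apob* mRNA so that enterocytes make the short form of the protein, was at 1.72 and 3.41 FPKM, a ratio of 1.98.

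Among 14 matched genes of lipolysis, lipid transfer and efflux, 13 were above 0 in both libraries. Of these, 6 had ratios of 2 or more, against 11.8% of all genes, and 0 had ratios of 0.5 or less, against 4.98%. *Lpl*, the lipoprotein lipase on which apoC2 and apoC3 act, was listed at 5.63 FPKM in *Dnmt1*-WT and 48.51 FPKM in *Dnmt1*-KO, a ratio of 8.62. *Gpihbp1*, which anchors the lipase to capillaries, had a ratio of 2.30, and *Angptl4*, which inhibits it, of 3.08. *Pltp*, the phospholipid transfer protein, had a ratio of 2.37. The efflux pumps did not share these ratios, with *Abca1* at 5.43 and 6.76 FPKM and *Abcg1* at 3.08 and 1.75 FPKM.

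Receptors for lipoproteins went in both directions. Of 15 genes above 0 in both libraries, 11 had ratios above 1, against 50.3% of all genes. Ratios of 2 or more were found for 3, against 11.8%, and a ratio of 0.5 or less for 1, against 4.98%. The median was 1.26. *Lrp1*, which takes up remnant particles through apoE, was at 48.48 and 60.34 FPKM, a ratio of 1.24. The scavenger receptors *Msr1*, *Cd36* and *Scarb1* had ratios of 5.83, 2.72 and 2.18. *Sort1*, a sorting receptor that binds apoB in the secretory pathway, was lower, at 36.09 FPKM in *Dnmt1*-WT and 17.79 FPKM in *Dnmt1*-KO.

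The transcription factors listed for apolipoprotein genes went in both directions. Ratios of 2 or more were found for 7 of 17, against 11.8% of all genes. Ratios of 0.5 or less were found for 2, against 4.98%, and the median of the list was 1.10. *Nr1h3*, the oxysterol receptor LXR alpha, was listed at 1.3 FPKM in *Dnmt1*-WT and 4.42 FPKM in *Dnmt1*-KO, a ratio of 3.40, while *Nr1h2*, LXR beta, was at 44.62 and 42.98 FPKM. *Hnf4a* and *Creb3l3*, factors of enterocytes and hepatocytes, had ratios of 2.92 and 2.56, while *Hnf4g* was at 0.66 and 0.69 FPKM, a ratio of 1.05. *Ppara* and *Nr1d1* were lower, with ratios of 0.359 and 0.358.

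**Figure D5:**
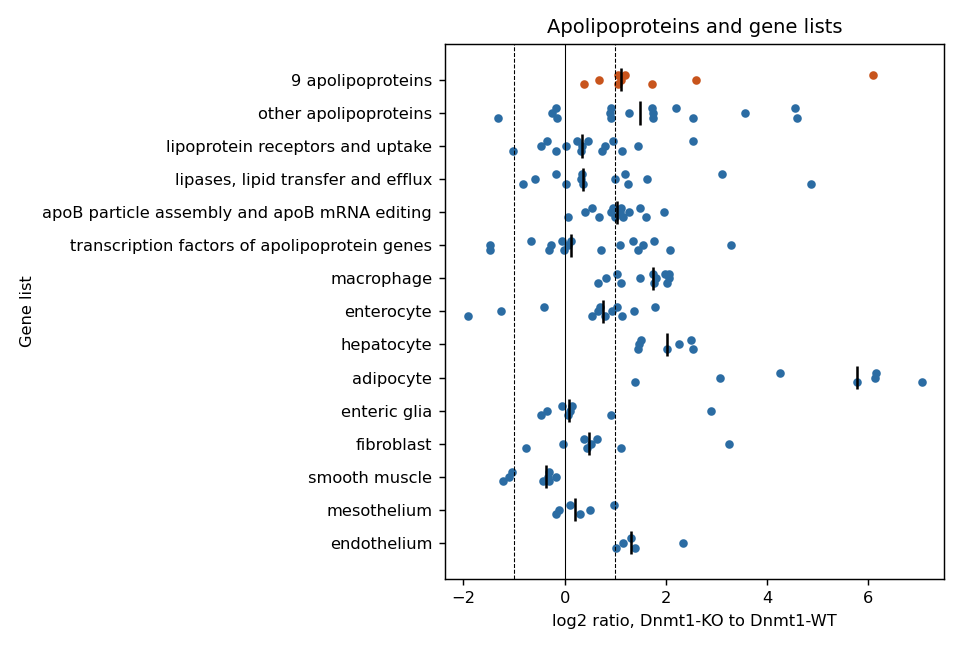
The log2 ratio of *Dnmt1*-KO to *Dnmt1*-WT of each gene above 0 in both libraries, for the 9 apolipoproteins and 14 gene lists, with a black bar at the median of each list and dashed lines at 2-fold. The apolipoproteins have a median of 1.12, those of macrophage and adipocyte genes are 1.75 and 5.78, and smooth muscle genes lie below 0.

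Because the tissue is a wall of many cell types, marker genes were read in the same libraries. In such bulk RNA fewer cells of a type and less RNA per cell cannot be told apart. All 8 smooth muscle genes, among them *Acta2* and *Myh11*, were lower in *Dnmt1*-KO. A ratio of 0.5 or less was found for 3 of them, against 4.98% of all genes. The median ratio of the 8 was 0.772, and their sum was 16754.9 and 12123.5 FPKM. Enterocyte genes were read in both libraries, 12 of 12 above 0, with a sum of 184.9 FPKM in *Dnmt1*-WT and 439.7 FPKM in *Dnmt1*-KO, a ratio of 2.38. Most of this sum came from *Fabp1*, *Rbp2* and *Fabp2*. Of the 12 genes, 4 had ratios of 2 or more, against 11.8% of all genes, and 2 had ratios of 0.5 or less, against 4.98%. The median ratio of the list was 1.69, with a range of 0.264 to 3.45. Within it *Fabp1*, *Rbp2*, *Fabp2* and *Anpep* had ratios of 3.45, 2.58, 2.19 and 2.05, *Vil1* of 1.74 and *Lct* of 1.45, while *Sis* and *Slc15a1* had ratios of 0.264 and 0.418. *Apoa1*, *Apoc3* and *Apoa4*, which enterocytes express, had ratios of 2.07, 2.17 and 2.08. For *Apob*, which encodes the scaffold of the chylomicrons that enterocytes assemble, the ratio was 1.30. The part of epithelial RNA in these values was not tested. Of 9 listed hepatocyte genes, 7 were above 0 in both libraries. All 7 had ratios of 2 or more, against 11.8% of all genes. The median of the 7 was 4.05 and the range 2.71 to 5.79. *Cps1*, which enterocytes share, was at 1.08 and 6.25 FPKM, *Ttr* at 0.94 and 2.55 FPKM, *Ahsg* at 0.34 and 1.91 FPKM and *Alb* at 0.21 and 0.85 FPKM, while *Fga* and *Hpx* were listed at 0 in *Dnmt1*-WT and at 0.03 and 0.13 FPKM in *Dnmt1*-KO. *Trf*, which other cells also express, held 31.05 and 88.58 of the 33.89 and 101.31 FPKM of that list. The part of hepatocyte RNA in the apolipoprotein values was not tested.

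Macrophages and adipocytes are known to express *Apoe* and *Apoc1*, and their marker genes were also higher. All 12 macrophage genes had ratios above 1, against 50.3% of all genes, and 10 had ratios of 2 or more, against 11.8%. The list had a range of 1.58 to 4.20, a median of 3.37 and sums of 153.39 and 526.89 FPKM. The ratio of *Apoe*, 2.30, lay within this range, above *Cx3cr1* (1.58), *Csf1r* (1.77), *Emr1* (2.04) and *Mrc1* (2.17) and below the other 8 genes, and the ratio of *Apoc1*, 68.4, lay outside it. All 7 adipocyte genes above 0 in both libraries had ratios of 2 or more, against 11.8% of all genes. *Lep* was listed at 0 in *Dnmt1*-WT and 0.2 FPKM in *Dnmt1*-KO. The adipocyte sum was 119.39 and 1229.62 FPKM, a ratio of 10.3, of which *Fabp4* made up 103.72 and 874.84 FPKM. Ratios in this list were 2.61 for *Lipe*, 8.43 for *Fabp4*, 19.2 for *Cidec*, 55.0 for *Adipoq*, 70.0 for *Cfd*, 70.7 for *Plin1* and 133 for *Retn*. The ratio of *Apoc1*, 68.4, lay within the range of the adipocyte list, and that of *Apoe*, 2.30, lay below it. Enteric glia, which also express *Apoe*, showed a median ratio of 1.06, with *Sox10* at 25.16 and 27.88 FPKM and *Gfap* at 4.78 and 35.36 FPKM. Fibroblast, mesothelium and endothelium lists had median ratios of 1.39, 1.16 and 2.46. The part of these cell types in the apolipoprotein values was not tested.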

How the data were processed

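The mRNA-seq libraries of the jejunal muscle layer were used, 1 per genotype, grouped by the genotype label. The authors prepared libraries with the TruSeq RNA kit, mapped to GRCm38/mm10 and deposited expression as FPKM, with the number of transcript variants per gene and library. The submitters' processing notes name TopHat 1.4.1 and Cufflinks 2.0.2. The deposited table also holds a ratio of the genotypes, which was not used. The table gives no reads per gene, so no counting interval was computed, and 0 columns lacked a sample.

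Ratios are plain ratios of FPKM, without rescaling, for genes above 0 in both libraries. Genes at 2 or above are called at least doubled. Log2 medians under alternatives used FPKM + 0.1. Gene positions, overlaps and transcript lengths came from GENCODE release M21 on GRCm38, which has 17204 of the 18159 symbols, and promoters came from RefSeq on GRCm38.p6. Of 172 list entries 168 were found, by symbol or by a RefSeq synonym. The text names the 9 members, other apolipoproteins above 1 FPKM in 1 library, genes of a list where it is described, listed genes that start within 100 kb of a member, and the 3 genes nearest in level to each of the 3 most abundant members. The members and lists were chosen with earlier results of these data known. Python 3.11.15, numpy 2.4.6, pandas 2.3.3 and matplotlib 3.10.9 were used.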

Additional observations from a re-analysis of the deposited data

How the results depend on the processing

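Each of the 9 apolipoproteins kept a ratio above 1 under the scalings, pseudocounts and centrings tried and under the filter of 1 FPKM in at least 1 library, as did the 6 that the filter of 1 FPKM in both libraries left. Of 96 recomputed ratios, 93 stayed within 1.5 times the value given, and the other 3 were those of *Apoc1*, *Apoa2* and *Apod* with a pseudocount of 1. The count of 7 genes at least doubled was 4 among the 6 genes at 1 FPKM or more in both libraries, 3 at a fold of 3, 3 with centring on transcript GC content and 4 with centring on transcript length. GC centring put *Apoe* at 1.98, *Apoc3* at 1.95, *Apoa1* at 1.86 and *Apoa4* at 1.81. Scaling to the FPKM sum, which shifts all log2 ratios by 0.10, left 5 genes, with *Apoa1* at 1.93 and *Apoa4* at 1.94. The share of all genes was not recomputed for any of these counts, and the 11.8% given above holds for plain ratios of 2 or more. The median log2 ratio of the 9, 1.11 on the scale of FPKM + 0.1, ranged from 0.95 with length centring to 1.18 with upper-quartile scaling. The ratio of the summed FPKM ranged from 2.06 to 2.30. Counts for the other gene lists, recomputed under the scalings after the data were seen, stayed within 1.5 times for 68 of 70, the exceptions being the mesothelium list at 1 gene in place of 0. No paired analysis was possible because each genotype has 1 library, and for the same reason no library could be left out. No counting error was computed, and ratios from values under 1 FPKM, as those of *Apoc1*, *Apoa2* and *Apod*, moved most with the pseudocount.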

Other observations

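A few genes named for their relation to apolipoproteins lie outside the lists and were picked after their values were seen. *Apoa1bp*, which encodes a protein that binds apoA1, was listed at 84.92 FPKM in *Dnmt1*-WT and 176.67 FPKM in *Dnmt1*-KO, a ratio of 2.08 beside the 2.07 of *Apoa1*. *Apobr*, a receptor through which macrophages take up particles with apoB, was listed at 0.13 and 2.27 FPKM, a ratio of 17.5. Relatives of the editing enzyme *Apobec1* differed in direction, with *Apobec3*, an antiviral deaminase, at 1.74 and 6.57 FPKM and *Apobec2*, a muscle gene, at 18.98 and 13.56 FPKM.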
